A study of Mus musculus with 40 samples.

Results

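The 4 Sall family genes of the mouse, Sall1, Sall2, Sall3 and Sall4, were taken by symbol from the 24062 genes of a gene-level count table, and all 4 were present. The libraries came from mouse embryonic fibroblasts (MEFs), primary connective tissue cells grown from embryos of 13.5 days post coitum and used at passage 3, on a mixed C57BL/6J and 129P2/OlaHsd background. RNA sequencing covered 1 Sall2 wild type (WT) embryo, 1 heterozygous (Het) embryo and 3 Sall2 knockout (KO) embryos, each without drug (control) and after 16 h in 1 µM doxorubicin, an anthracycline that poisons topoisomerase II and breaks DNA. The Sall2 allele was made by targeting in E14.1 embryonic stem cells, a line of 129P2/OlaHsd origin, so 129P2 sequence can flank the mutated allele, and its effects and those of the mutation cannot be told apart here. Of the 10 columns in the table, the doxorubicin columns of KO embryos 2 and 3 held the same count for 24062 of 24062 genes and were counted as 1 library, which left 9 libraries: 1 WT and 1 Het per treatment, 3 KO controls and 2 KO with doxorubicin. The WT and Het groups therefore had no replicate, and their tests borrowed the spread of the KO libraries. The column shared by KO embryos 2 and 3 was read as embryo 2, though the labels do not settle which embryo it came from. Values of KO embryo 2 with doxorubicin rest on that reading.

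Library totals ran from 15560728 to 24122414 counts, so 3 counts corresponded to 0.123 to 0.168 CPM, a count scaled to the TMM library size. In the Het control, the KO embryo 3 control and the Het doxorubicin libraries, the summed level of 12 interferon response genes was 2440, 2660 and 1520 CPM. In the other controls it was 48.5 to 69.4 CPM and in the other doxorubicin libraries 339 to 427 CPM. The same 3 libraries held less of 14 fibroblast marker genes (18600 to 24900 CPM in sum, against 53100 to 105000 CPM in the others) and more of 9 macrophage genes (436 to 643 CPM, against 74.5 to 199 CPM). Each sum is led by its most abundant genes, and not every listed gene followed it. In the KO embryo 3 control, the fibroblast gene Fap was the highest of the controls and the macrophage gene C1qa the lowest. Values of the members over all genotypes are given with and without the 3 libraries, and the Het values rest on 2 of them.

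Sall genes encode nuclear zinc finger proteins of the spalt-like family, named after the Drosophila gene spalt. They can act as transcriptional repressors through the NuRD complex, a histone deacetylase and chromatin remodeller. SALL1 is required for kidney development, and its mutation in humans causes Townes-Brocks syndrome. SALL2 is the most divergent member, with reported roles in cell cycle control and the response to stress, including binding to the promoters of the cyclin dependent kinase inhibitor gene Cdkn1a and of Pmaip1. SALL3 is expressed in parts of the nervous system and limb, and SALL4 is a component of the pluripotency network of embryonic stem cells. Repression of SALL2 by p53 after genotoxic stress has been reported in human cells.

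In GRCm38, Sall2 lies on the minus strand at chr14:52311172-52328762. It has 2 annotated transcripts that start at separate promoters and share 4487 bases of their last exon, 82.6% of the 5433 bases of exon in the gene. Sall1 lies on the minus strand at chr8:89027235-89044162 and Sall4 on the minus strand at chr2:168748332-168767943. The stretches before the Sall2 starts are shown because the level of this gene fell and the table does not separate its transcripts, and the first Sall1 start is shown for contrast. They are RefSeq promoter sequences on GRCm38.p6, written 5′ to 3′ on the minus strand, and end at the base before the start, except that of the upstream Sall2 start, which stops 92 bases short of it. Capitals mark matches to TATAAA, to CCAAT or to the p53 decamer (by its consensus name), searched on both strands.
Sall2 upstream start, chr14:52328763-52328920: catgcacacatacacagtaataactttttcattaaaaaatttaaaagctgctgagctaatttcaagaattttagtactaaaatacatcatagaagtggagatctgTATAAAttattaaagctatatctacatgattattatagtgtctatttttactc
Sall2 downstream start, chr14:52316324-52316573: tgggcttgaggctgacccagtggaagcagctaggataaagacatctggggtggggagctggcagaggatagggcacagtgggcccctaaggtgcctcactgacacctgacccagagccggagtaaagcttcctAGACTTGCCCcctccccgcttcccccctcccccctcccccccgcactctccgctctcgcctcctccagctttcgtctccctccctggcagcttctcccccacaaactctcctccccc
Sall1 first start, chr8:89044163-89044412: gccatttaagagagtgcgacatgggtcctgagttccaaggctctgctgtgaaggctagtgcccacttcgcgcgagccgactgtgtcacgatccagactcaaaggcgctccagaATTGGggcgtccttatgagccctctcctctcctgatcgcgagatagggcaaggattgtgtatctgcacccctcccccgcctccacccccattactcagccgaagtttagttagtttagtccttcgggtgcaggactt
The Sall2 starts differed in base composition. Over 250 bases, the upstream start had 0 CpG and 28% GC, with 1 TATAAA whose first base was at position -145 from the start, 53 bases from the end of the printed stretch. A CCAAT lay at position -86 of that window, in the 92 bases that are annotated as exon and are not printed. The downstream start had 6 CpG and 64.4% GC, with 1 match to the p53 decamer at position -117. The Sall1 window had 13 CpG, 56.4% GC and 1 CCAAT, on the other strand, at position -137. Sall1 starts 2 and 3, not shown, had 25 and 30 CpG, 74.4% and 78.4% GC, and 0 CCAAT each. Of 32851 promoters of the same length, 12.4% held TATAAA, 33.8% CCAAT and 7.13% the p53 decamer, and the median promoter had 6 CpG and 52.4% GC. A match is a description of letters and not of binding.

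Sall2 was the most abundant member before the drug and fell in every genotype after it. In the controls, Sall2 stood at 37.6 CPM in WT, 24.0 CPM in Het and 19.9, 24.2 and 19.0 CPM in KO embryos 1, 2 and 3. With doxorubicin it stood at 9.35 CPM in WT, 7.94 CPM in Het and 4.23 and 3.72 CPM in KO embryos 1 and 2. Every doxorubicin library lay below every control library, with no overlap. This ordering held for 21.6% of the 16656 genes tested. Since these are bulk libraries, fewer cells that express a gene and less RNA per cell cannot be told apart.

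Within each embryo the level of Sall2 fell to between 0.153 and 0.33 of the control. In WT the level with doxorubicin was 0.248 of the control (95% counting interval 0.211 to 0.292, from 756 and 188 counts). In Het it was 0.33 of the control (0.276 to 0.393), in KO embryo 1 0.212 (0.164 to 0.272) and in KO embryo 2 0.153 (0.119 to 0.195). These intervals cover counting error only. The fall was thus smallest in the Het embryo and largest in the pair read as KO embryo 2.

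**Figure D1:**
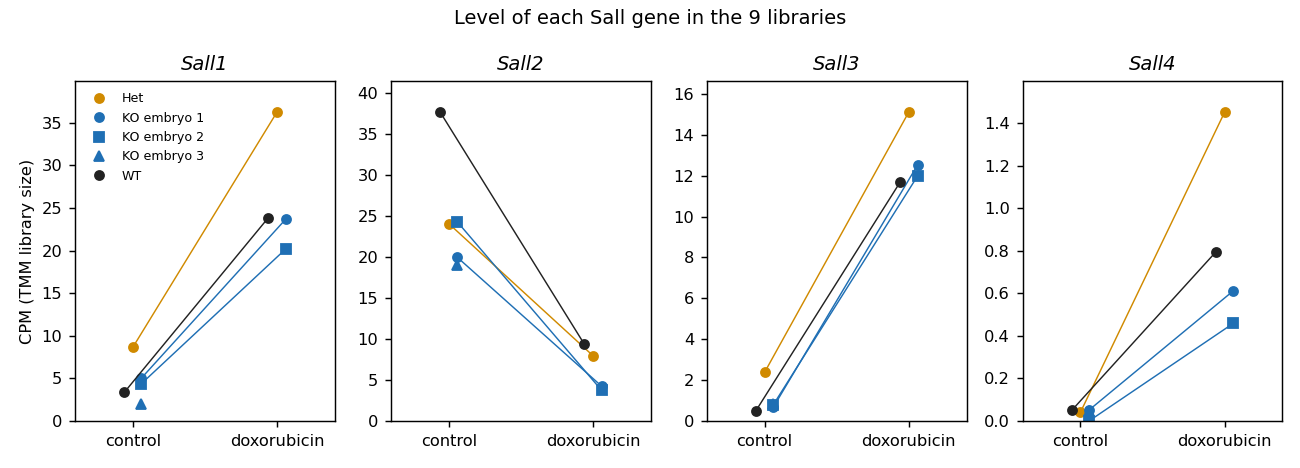
Level of each Sall gene (y axis, CPM on a linear scale from 0) without and with doxorubicin (x axis), with lines joining the libraries of 1 embryo and colours for WT, Het and KO. Sall2 falls from 19.0 to 37.6 CPM in the controls to 3.72 to 9.35 CPM, whereas the other members rise in each embryo; KO embryo 3 has a control point only.

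Across all genotypes, doxorubicin lowered Sall2 by a log2 fold change of -2.12 (SE 0.204, FDR = 6.9e-05, edgeR quasi-likelihood test with Benjamini-Hochberg adjustment, 4 doxorubicin against 5 control libraries). An FDR under 0.01 was the threshold for a call. In this fit 40.6% of genes were called, 18.7% lower and 21.9% higher, and Sall2 had the 575th lowest log2 fold change of 16656 genes. Without the 3 libraries of high interferon response the log2 fold change of Sall2 was -2.30 (SE 0.157, FDR = 6.42e-07, edgeR).

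The genotypes were then taken apart. In the KO libraries alone of the fit with 6 group means, the log2 fold change of Sall2 was -2.41 (SE 0.267, FDR = 0.00373, edgeR), past the threshold, where 10.4% of genes were called and 3.8% were called lower. A fit of the KO libraries alone gave -2.39 (SE 0.267, FDR = 0.00379, edgeR), where 12.8% of 14904 genes were called, 8.06% higher and 4.76% lower. Sall1 (2.55, FDR = 0.00875) and Sall3 (4.03, FDR = 0.00221) were called higher in that fit, and Sall4 was too low to be tested. These calls at 0.01 rested on all libraries but 1. For Sall2 the FDR was 0.0143 without the KO embryo 1 control, 0.0206 without the embryo 2 control, 0.0685 without the embryo 1 doxorubicin library and 0.0763 without that of embryo 2, with log2 fold changes of -2.48 to -2.29. Without the embryo 3 control it was 1.8e-05. Sall1 and Sall3 lost their calls without the same 4 libraries. In WT it was -2.01 (FDR = 0.0445) and in Het -1.60 (FDR = 0.0811), with 1 library against 1 in each. In neither of the latter did edgeR call any gene, so the background was 0%, although 4869 genes in WT and 4372 in Het had an unadjusted p under 0.05. DESeq2 called 1629 genes in WT and 1163 in Het, with Sall2 called in WT at -1.95 (FDR = 0.00143) and not called in Het at -1.47 (FDR = 0.0295). The difference between the responses was tested directly. The KO response of Sall2 was lower than that of WT by a log2 difference of -0.40 (SE 0.446, FDR = 1, edgeR) and the Het response was higher by 0.41 (SE 0.528, FDR = 1, edgeR), each within its error. The share of genes called was 0% for both differences, with 58 and 270 genes at an unadjusted p under 0.05, and DESeq2 called 0 genes in each. With the embryo as a replicate block, edgeR called 8 genes for KO and 1459 for Het, Sall2 not among them. The spread in that fit came from the pairs of KO embryos 1 and 2 alone.

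**Figure D2:**
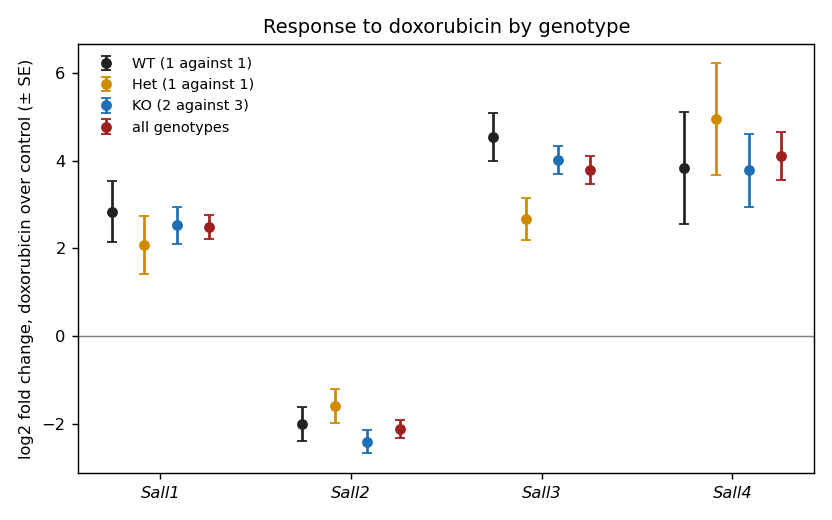
Log2 fold change of each Sall gene with doxorubicin over control (y axis, bars are standard errors) in WT, Het, KO and all genotypes in 1 fit. Sall2 lies below 0 in all of them, between -2.41 and -1.60 in the 3 genotypes, and the other members lie above 0.

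The targeted gene remained measurable in the cells labelled KO. Its counts there were 388, 432 and 424 in the controls and 76 and 81 with doxorubicin. Against the WT library of the same treatment, the KO control level was 52.9%, 64.4% and 50.5% of WT, and the KO doxorubicin level was 45.2% and 39.8%. The Het level was 63.9% of WT in the controls and 85% with doxorubicin. All KO libraries lay below the WT library of their treatment. The Het control, at 24.0 CPM, lay between the KO controls, so the gene-level count did not separate these genotypes. With doxorubicin both KO libraries lay below the Het library. The share of all genes with these orderings of genotypes was not counted, so they are a description only.

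Counts per gene do not show which exons the reads came from, and which exons the targeting removed is not given in the sources used here. Reads from exons that the allele keeps are counted in full. These values therefore neither check the loss of the protein nor go against it. Over both treatments, Sall2 was lower in KO than in WT by a log2 fold change of -1.0 (SE 0.228, unadjusted p = 0.00198, FDR = 1, edgeR quasi-likelihood test over 16656 genes). It did not pass the threshold, and neither did any other gene: 0% were called, with 115 genes at an unadjusted p under 0.05, while DESeq2 called 3 genes and gave Sall2 -0.98 with FDR = 0.62. Without the 3 libraries of high interferon response the value was -0.97 (SE 0.156, FDR = 0.121, edgeR). In Het against WT Sall2 was lower by a log2 fold change of -0.42 (SE 0.282, FDR = 0.337, edgeR). This was -0.10 without the Het control and -0.79 without the Het doxorubicin library, and did not pass in either. In the comparison of Het with WT 0% of genes were called, with 3925 at an unadjusted p under 0.05 and 176 called by DESeq2.

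Sall1, the kidney and limb regulator, rose with doxorubicin. It stood at 3.34 CPM in WT, 8.64 CPM in Het and 5.03, 4.38 and 2.02 CPM in the KO controls. With doxorubicin it stood at 23.9 CPM in WT, 36.3 CPM in Het and 23.7 and 20.2 CPM in KO. All doxorubicin libraries were above all controls, an ordering that held for 24.8% of the 16656 genes tested. The Het libraries were the highest of each treatment. Within an embryo the level rose 7.16-fold in WT (counting interval 5.53 to 9.38), 4.2-fold in Het (3.6 to 4.91), 4.71-fold in KO embryo 1 (3.77 to 5.93) and 4.61-fold in KO embryo 2 (3.62 to 5.95). Over all genotypes the log2 fold change was 2.49 (SE 0.279, FDR = 0.00014, edgeR), or 2.41 (SE 0.171) without the 3 libraries of high interferon response, and the KO response differed from that of WT by -0.31 (SE 0.774). That difference was -0.62 (SE 0.329, unadjusted p = 0.0607, edgeR) with the replicate block, -0.62 without KO control 3 and -0.05 without KO control 1, with FDR = 1 in each.

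Sall3, on the minus strand of chromosome 18, had the largest rise among the members with more than a few counts in the controls. Its levels were 0.498 CPM in the WT control, 2.38 CPM in the Het control and 0.668, 0.786 and 0.808 CPM in the KO controls. With doxorubicin they were 11.7 CPM in WT, 15.1 CPM in Het and 12.5 and 12.0 CPM in KO. The treatments did not overlap, as for 24.8% of the 16656 genes tested in this direction, and the doxorubicin libraries lay close together. The fold within an embryo was 23.5 in WT (12.5 to 49.6), 6.36 in Het (4.79 to 8.57), 18.8 in KO embryo 1 (10.7 to 35.8) and 15.2 in KO embryo 2 (8.93 to 28.3). Het had the smallest fold and the highest control, at 58 counts against 10 to 18 in the others. The log2 fold change over all genotypes was 3.79 (SE 0.317, FDR = 3.89e-05, edgeR), or 4.21 (SE 0.208) without the 3 libraries of high interferon response.

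The Het control, the highest of the controls for Sall1 and Sall3, also carried the high interferon and macrophage sums. The KO embryo 3 control, with the same kind of sums, did not: Sall1 was lowest there, at 2.02 CPM, and Sall3 was at 0.808 CPM. The part of these sums in the Het values was not tested. The difference between the Het and WT responses of Sall3 was -1.87 (SE 0.681, unadjusted p = 0.0338, FDR = 1, edgeR). With the replicate block, where the spread came from the KO embryo 1 and 2 pairs alone, it had FDR = 0.0105, still over the threshold.

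Sall4 was at the limit of detection without the drug. It had 1 count in WT, Het, KO embryo 1 and KO embryo 3 and 0 in KO embryo 2. The drug-treated libraries held 16 (WT), 30 (Het), 11 (KO embryo 1) and 10 (KO embryo 2) counts, or 0.459 to 1.45 CPM. All doxorubicin libraries were above all controls, as for 24.8% of the 16656 genes tested. Summed over libraries and scaled to depth, the level was 21.7-fold higher with doxorubicin (67 against 4 counts, counting interval 8.07 to 81.8). Sall4 passed the filter on low counts only through the doxorubicin libraries, so a difference was built into its being tested. Its log2 fold change was 4.11 (SE 0.555, FDR = 0.000356, edgeR) over all genotypes. Its log2 fold change came out at 3.93 without the 3 libraries of high interferon response.

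The rise of Sall1 and Sall3 was ranked 2089th and 1145th highest among the 16656 genes tested, and 21.9% of genes were called higher. Every doxorubicin library was above every control for 24.8% of genes. In KO alone, Sall1 (2.53, SE 0.418, FDR = 0.00952, edgeR) and Sall3 (4.01, SE 0.318, FDR = 0.002) were past the threshold where 6.6% of genes were called higher. Sall4 was not (3.78, SE 0.838, FDR = 0.0211). In WT alone the values were 2.84, 4.54 and 3.84 and in Het alone 2.07, 2.67 and 4.95 for Sall1, Sall3 and Sall4, and none passed in edgeR, where DESeq2 called Sall1 and Sall3 in WT and Sall3 in Het.

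Whether another member was higher where Sall2 was targeted was compared next. Sall1 was at 151%, 131% and 60.5% of the WT level in the KO controls, on both sides of it, and at 99.3% and 84.6% with doxorubicin. Sall3 was at 134%, 158% and 162% of WT in the KO controls, where WT had 10 counts, and at 107% and 103% with doxorubicin. Sall4 was at 76.9% and 57.7% of WT with doxorubicin. Over both treatments the log2 fold change in KO against WT was 0.01 (SE 0.341) for Sall1, 0.22 (SE 0.381) for Sall3 and -0.54 (SE 0.653) for Sall4, each with FDR = 1 (edgeR) and within its error. The 95% intervals were -0.76 to 0.79 for Sall1, -0.65 to 1.09 for Sall3 and -2.03 to 0.94 for Sall4, so a gain in KO was not detectable with 1 WT embryo but was not bounded closely either. The sign of Sall1 turned without the WT control (-0.2), KO control 1 (-0.1), KO control 2 or KO doxorubicin 1 (-0.04 each), and that of Sall3 without the WT control (-0.14).

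**Figure D3:**
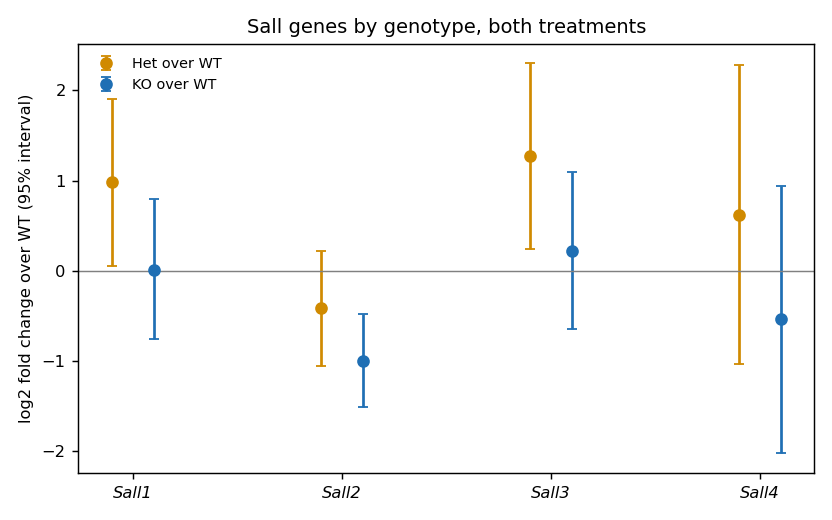
Log2 fold change of each Sall gene over WT, across both treatments (y axis, with 95% intervals), for Het and KO. Sall2 in KO, at -1.0, lies below 0, and the KO values of Sall1 and Sall3, 0.01 and 0.22, lie near 0 with intervals on both sides.

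In Het, Sall1 was at 259% of WT in the control and 152% with doxorubicin, and Sall3 at 477% and 129%. The log2 fold changes were 0.98 (SE 0.408, FDR = 0.205, edgeR) for Sall1 and 1.27 (SE 0.454, FDR = 0.2) for Sall3, and neither passed. Sall3 was at 0.52 without the Het control and 2.01 without the Het doxorubicin library, and Sall1 at 1.79 with RUVg. Without KO control 3 Sall1 had 0.94 with FDR = 0.0118, still over the threshold. The Het embryo is 1 animal whose libraries stood apart, so embryo and genotype cannot be told apart.

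Levels of different genes were compared per length, as RPKM, a count scaled to exon length and library size. In the controls Sall2 had 3.5 to 6.93 RPKM, Sall1 0.384 to 1.64, Sall3 0.0666 to 0.318 and Sall4 0 to 0.00928. With doxorubicin Sall1 led with 3.84 to 6.89 RPKM, followed by Sall3 with 1.56 to 2.02, Sall2 with 0.685 to 1.72 and Sall4 with 0.083 to 0.262. Sall2 thus made up 69.2% to 90.7% of the family per length in the controls and 11% to 21.6% with doxorubicin. Sall1 went the other way, from 8.3% to 25.7% to 57% to 64.8%. The family sum was 7.64 RPKM in the WT control and 7.96 with doxorubicin, and 6.39 and 10.6 in Het. In KO it was 4.72, 5.4 and 4 in the controls and 7.06 and 6.21 with doxorubicin. The dominant member changed in every genotype, KO included.

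**Figure D4:**
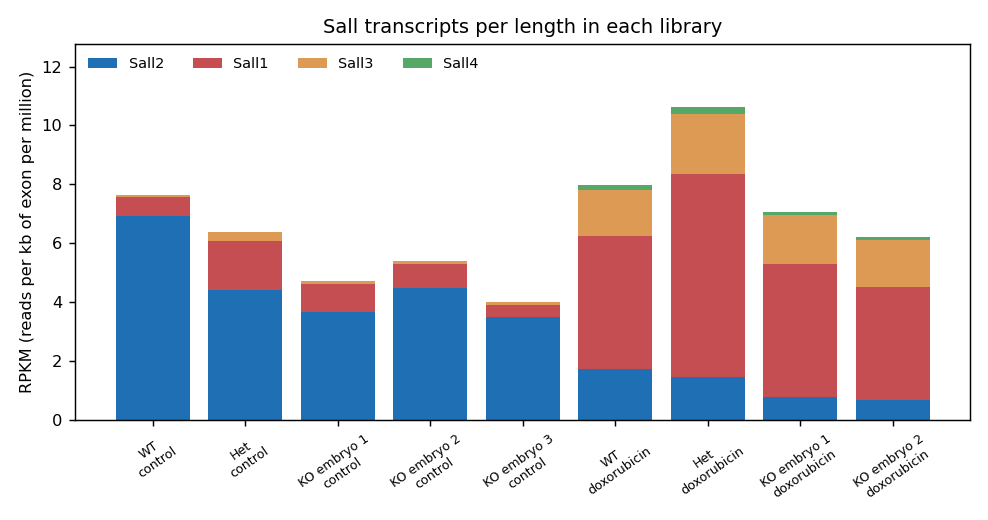
Level per length of the 4 Sall genes (y axis, RPKM, stacked from 0) in each of the 9 libraries (x axis). Sall2 fills most of each control bar, and Sall1 most of each doxorubicin bar.

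The partners and reported targets of the family were read in the doxorubicin comparison over all genotypes, where the median log2 fold change of all genes was 0.02 and 21.9% were called higher and 18.7% lower. Of 15 NuRD subunits, 1 was called higher (6.67%) and 6 lower (40%), with a median of -0.53. The calls in both directions together were near the share of all genes, 40.6%. By direction, the lower calls were above their share and the higher calls below it, a difference that was not tested. The largest falls were those of Mta3 (-1.71), Mta2 (-1.46) and Mta1 (-1.43), subunits that scaffold the deacetylases. The histone chaperone Rbbp4 fell by 0.98 on the log2 scale. Chd5, a remodeller mainly of the nervous system, rose by 2.49 (FDR = 0.00142, edgeR), while Chd4, the main remodeller, had -0.89 (FDR = 0.0272) and the deacetylase Hdac1 had 0.27, neither past the threshold. Among reported SALL2 targets, Pmaip1, a proapoptotic BH3 gene, rose (2.19) and Myc, a growth regulator, fell (-1.21). Cdkn1a had -0.67 (FDR = 0.0145), Cdkn2a 0.75 (FDR = 0.0119), Ccnd1 -0.06 and Ccne1 -0.04, and these did not pass. In edgeR none of the listed genes was called for KO or Het against WT, where it called 0 of 16656 genes.

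Genes known to work with SALL4 and SALL1 were read in the same fit. A gene that reached the filter only through the doxorubicin libraries had to differ, so such genes are set apart, and among the 14592 genes that reached it in both treatments 17% were called higher and 21% lower, with a median of -0.11. Of 15 pluripotency genes 11 were tested, and 4 of these (Esrrb, Lin28a, Tfcp2l1 and Utf1) reached the filter only with doxorubicin. Of the other 7, 4 were called higher and 0 lower, with a median of 0.93, and Sox2, a core stem cell factor gene, rose by 2.84 and Klf5 by 2.23. Klf2 went the other way, at -1.47 (FDR = 0.0296, edgeR), and was not called. Tfcp2l1, a transcription factor gene, had 6 to 8 counts in the controls and 167 to 316 with doxorubicin. Utf1, a chromatin associated stem cell gene, had 0 counts in every control and 13 to 31 with doxorubicin, at least 40.1-fold higher against a floor of 3 counts over the group. Lin28a, an RNA binding protein gene, had 1 count in the controls and 36 with doxorubicin, a ratio of 46.5 (7.84 to 1890). Pou5f1, Zfp42, Dppa4 and Prdm14 were too low to be tested, and Nanog had 0.27. Of 14 kidney and limb genes, 2 (Fgf8 and Pax2) reached the filter only with doxorubicin, and of the other 12, 5 were called higher and 3 lower, with a median of 0.35. The ureteric bud ligand gene Gdnf rose by 4.94 and Ret, its receptor gene, by 3.51, and Osr1 (-2.1), Gli3 (-1.51) and Eya1 (-1.49) fell. Fgf8 had 0 counts in every control and 10 to 20 with doxorubicin, at least 24.1-fold higher, and the kidney gene Pax2 had 0 to 8 counts in the controls and 97 to 187 with doxorubicin. Of 21 p53 response genes, 3 were called higher (Perp 2.34, Pmaip1 2.19, Rrm2b 1.59) and 1 lower (Phlda3 -1.46), with a median of -0.19, and Trp53 itself had 0.32 (FDR = 0.135, edgeR). Without the 3 libraries of high interferon response, the counts higher and lower were 2 and 9 for NuRD and 5 and 6 for p53. They were 7 and 1 of 10 for pluripotency genes and 7 and 4 of 14 for kidney and limb genes. Genes that reached the filter only with doxorubicin are not set apart in these counts. In that fit 35.1% of 15442 genes were called higher and 31.4% lower.

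**Figure D5:**
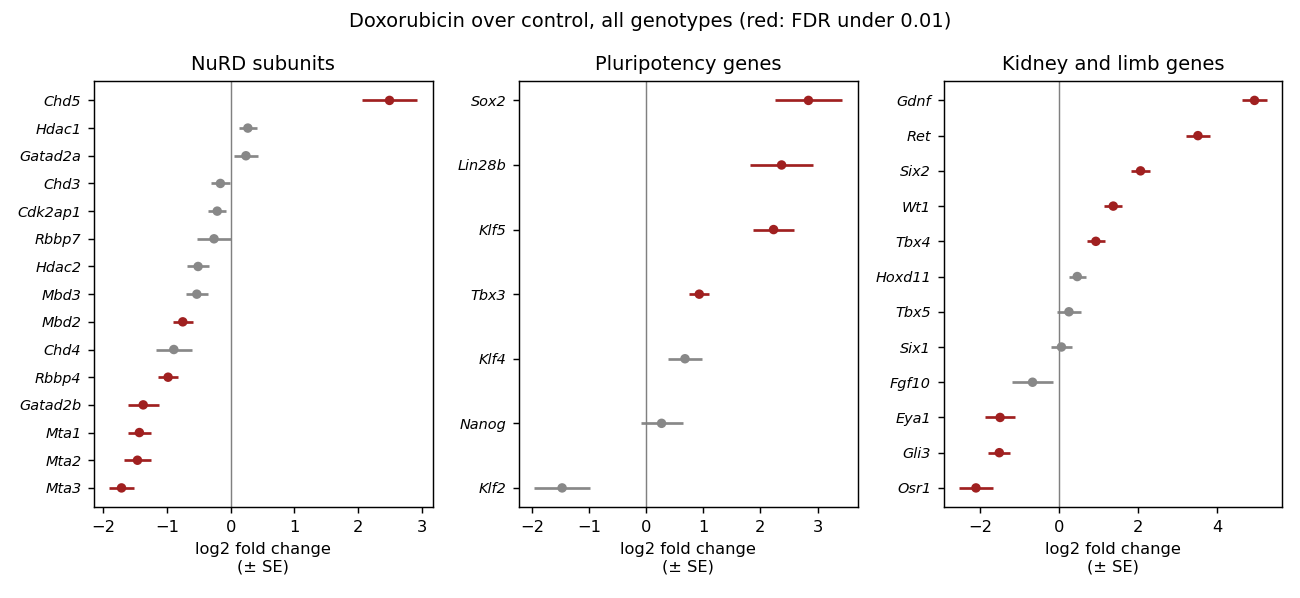
Log2 fold change with doxorubicin over all genotypes (x axis, lines are standard errors) for NuRD subunits, pluripotency genes and kidney and limb genes that reached the filter on low counts in both treatments. Red marks FDR under 0.01, and the NuRD median lies left of 0 (-0.53) and the pluripotency median right of it (0.93).

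Marker lists of other cell types were read in the same fit. The share of all genes was 21.9% higher and 18.7% lower. Called higher and lower were 2 and 0 of 7 endothelial genes, 2 and 1 of 5 epithelial genes, 1 and 1 of 9 neural and glial genes, 1 and 1 of 9 macrophage genes, 0 and 0 of 6 skeletal muscle genes and 0 and 0 of 12 interferon genes. Of 14 fibroblast genes only Pdgfrb was called, at -2.83. The epithelial genes called higher, Epcam and Krt5, and 1 neural gene, Elavl3, reached the filter only with doxorubicin. Without the 3 libraries of high interferon response, 11 and 0 of 12 interferon genes were called higher and lower, with a median of 2.72. There the counts were 1 and 5 of 14 for fibroblast, 1 and 4 of 9 for macrophage, 4 and 0 of 7 for endothelial, 3 and 2 of 5 for epithelial, 1 and 1 of 7 for neural and glial, and 1 and 0 of 5 for muscle genes, where 35.1% of all genes were called higher and 31.4% lower. The summed epithelial level was 10.8 to 21.5 CPM in the controls and 8.77 to 13.9 CPM with doxorubicin. Krt5, a basal keratin gene, had 0 or 1 count in the controls and 10 to 88 with doxorubicin. Krt18, another keratin gene, went the other way in the fit of all 9 libraries, at -1.62 (FDR = 0.000578, edgeR). Of the 2 epithelial genes that reached the filter in both treatments, 0 were called higher and 1 lower. The part of such cells and of the interferon response in the Sall values was not tested.

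On either side of Sall2, the genes closest to it did not all move with it. Mettl3, an RNA methyltransferase gene 6.04 kb away, had a log2 fold change of -1.35 (SE 0.168, FDR = 0.00024, edgeR) with doxorubicin. Tox4 had -0.02, Rab2b -0.04 and Chd8 -0.45 (FDR = 0.0145), none of them called. Snord8 was too low to be tested. The 5 olfactory receptor genes on the other side had 0 counts in all 9 libraries. In KO against WT, Mettl3 had -0.30 (SE 0.2), Tox4 -0.38 (SE 0.196), Rab2b 0.06 and Chd8 -0.05, none of them called.

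By log2 CPM over the 9 libraries, the genes most like Sall2 among 13863 were Eea1 and Rsf1 (Pearson r 0.976 each), Zfp142 (0.97), Cpne8 and Ankrd11 (0.969 each). Those most like Sall1 were Tfap2a and Shc3 (0.989 each), and for Sall3 Scube3, Slc2a6, Ankmy1 and Cecr6 had 0.994 each. Among the members, r was 0.959 for Sall1 and Sall3 and -0.889 for Sall2 and Sall3. All these points share the split into treatments, and r over them is a description.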

How the data were processed

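The authors' deposited file held raw read counts per gene, from single libraries of MEF RNA. Reads were aligned to mm10 with HISAT2 (2.1.0 in the submitters' processing notes, another version in the study's methods) and counted with HTSeq in union mode from rRNA-depleted stranded libraries. The strand setting of the counting is not given in the sources used here. The members and gene lists were chosen with earlier results of these data known. Each GEO sample was 1 of 4 sequencing runs of a library, and the table held 1 column per library. Genes were filtered with filterByExpr over the 6 groups (16656 of 24062 kept, 14904 within KO) and scaled by TMM in edgeR 4.0.16 (R 4.3.3, limma 3.58.1). A quasi-likelihood fit with genotype and treatment (5 residual df) was the main model, and one with 6 group means (3 residual df) gave the effects per genotype. Calls were at a Benjamini-Hochberg FDR under 0.01, two-sided. Nothing says that libraries of 1 group came from separate cultures beyond the embryo. The main fits had no term for the embryo, so the control and doxorubicin libraries of 1 embryo were counted as independent. With 1 WT and 1 Het embryo, p-values of KO or Het against WT do not measure the spread between WT or Het embryos. The number of a KO embryo was taken to mark the same embryo in both treatments. The control difference between KO embryos 1 and 2 correlated with the doxorubicin difference between embryo 1 and the shared column (r = 0.48 over 13807 genes). Embryo 1 enters both differences, and embryo 3 was not tried in place of embryo 2. This r therefore does not settle which embryo the shared column came from. Counting intervals of ratios are exact binomial. RPKM used the union of exons in GENCODE M21 on GRCm38. Named genes were the members, the 3 largest called changes of each list with a fixed set of NuRD, target and p53 genes, 5 neighbours on each side and 5 closest correlates, and a few of these are not reported here. Genes named beyond that (Ret, Osr1, Gli3, Eya1, Phlda3, Nanog, Sox2, Klf5, Klf2, Esrrb, Fap, C1qa and the untested pluripotency genes) were chosen after their values were seen. Alternatives were DESeq2 1.42.0, RUVg, filters, thresholds, the replicate block and left-out libraries. The main fit was tried on simulated data, with independent libraries and a doxorubicin effect only. Of 100 genes given a log2 change of size 1, 21 were called with the right sign, and of 100 given size 2, 89. A change of size 1 was thus mostly missed.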

Additional observations from a re-analysis of the deposited data

How the results depend on the processing

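With doxorubicin Sall1 (2.32 to 2.76), Sall2 (-2.3 to -2.03) and Sall3 (3.6 to 4.21) were called in every alternative run. Sall4 ranged from 3.79 to 4.38, but it reached the filter only through the doxorubicin libraries, so its calls support nothing. Genes called numbered 6760, against 3430 at FDR 0.001, 10259 with RUVg and 10281 without the 3 libraries of high interferon response (an alternative chosen after seeing the data), and 4322 to 9770 with 1 library left out. The replicate block gave 9486. Within KO, 1911 genes were called, against 4555 with DESeq2, 5130 at FDR 0.05, 0 at FDR 0.001, 8599 with RUVg, 10055 with the replicate block and 0 to 8126 with 1 library left out. There Sall1 (2.55), Sall2 (-2.39) and Sall3 (4.03) were not called at FDR 0.001, nor without KO control 1, KO control 2, KO doxorubicin 1 or KO doxorubicin 2, and were called without KO control 3 (over all 5, Sall1 2.23 to 2.79, Sall2 -2.48 to -2.29, Sall3 3.93 to 4.08). Where a group kept 1 library, it was assumed to vary like the others. For KO against WT 0 genes were called, against 3 with DESeq2, 2 with RUVg, 3 without the 3 libraries and 0 to 1 with 1 library left out. Sall2 stayed between -1.08 and -0.9 (FDR 0.121 to 1). Sall1 turned to -0.2 without the WT control, -0.1 without KO control 1 and -0.04 without KO control 2 or KO doxorubicin 1 (-0.2 to 0.25), and Sall3 to -0.14 without the WT control (-0.14 to 0.79). For Het against WT 0 genes were called, against 176 with DESeq2, 1 with no filter, 1 at FDR 0.05, 1 with RUVg and 0 to 3265 with 1 library left out, the 3265 without KO control 3. Sall4 turned to -0.28 without Het doxorubicin (-0.28 to 0.88). For the difference between KO and WT responses 0 genes were called, against 8 with the replicate block, and Sall4 turned to 0.09 with RUVg, 0.22 with the block, 0.16 without the 3 libraries and -0.52 to 0.29 with 1 left out. For Het 0 genes were called, against 1459 with the block and 0 to 28 with 1 left out. The block changed no other call, and KO or Het against WT could not be fitted with it since each embryo has 1 genotype. Within KO and for the differences between responses, the spread of the blocked fits came from the pairs of KO embryos 1 and 2 alone. The Sall4 mean log2 ratio of levels moved to 3.84 with a prior count of 0.5. The causes were not tested. The depth limits Sall4, with at most 1 count per control.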
